A study of Rattus norvegicus with 84 samples.

Results

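The 7 genes described here encode the opioid system of the rat nucleus accumbens. They comprise 3 peptide precursors (Penk, Pdyn and Pnoc) and 4 receptors (Oprm1, Oprk1, Oprd1 and Oprl1). They were taken by symbol from a count table of 41919 genes, and all 7 were counted in every library and passed the filter on low counts in every fit. Total RNA had been sequenced from the core and the shell of the accumbens of wild-type Long-Evans rats. The labels cross 2 subregions (Core, Shell) with 3 conditions (Ext, HC, Ctx) and 2 drugs (Coc, Sal), which gives 12 groups of 7 libraries each and 84 libraries in all. Coc and Sal stand for cocaine and saline, and Ext for extinction, since the series compares extinction with withdrawal from cocaine. HC and Ctx commonly abbreviate home cage and context, but the labels leave both undefined. The sources used here do not give age, sex, dose or time. Nor do the labels say whether each library is 1 animal, so a p-value given here reflects the scatter of these libraries, part of which may be technical.

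Opioid peptides are cut from larger precursors and act on receptors coupled to inhibitory G proteins, which lower cyclic AMP, open inwardly rectifying potassium channels and close calcium channels. Penk yields the enkephalins, ligands of the mu and delta receptors (Oprm1, Oprd1), Pdyn yields the dynorphins, ligands of the kappa receptor (Oprk1), and Pnoc yields nociceptin, the ligand of the nociceptin receptor (Oprl1). In the striatum, Penk is the classic transcript of D2-type projection neurons and Pdyn of D1-type projection neurons. Mu and kappa receptor agonists have opposed effects on reward in the accumbens, and dynorphin is known to be induced in the striatum by repeated cocaine.

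Several features of the libraries touch every value given here. Libraries held 13.6 to 22.5 M (mega) counts. The authors' counts and FPKM values together imply that genes were counted over their whole span, introns included (253353 bases for Oprm1, 5362 for Penk). Background was read from 2033 receptor genes of smell and pheromone sensing, whose known place of expression is the sensory neurons of the nose. Spread over all genes by length, they amounted to a median of 22.2% of a Core library (1.58 to 96.1%) and 21.9% of a Shell library (2.13 to 52.4%). The highest value, 96.1%, belonged to the Core Ctx_Coc library 17-F, which stood apart from the rest. By their titles, Core libraries belong to series 1, 2 or F while those of Shell belong to 3, 4 or F, so that the 12 libraries of series F in each subregion are the only ones of a shared series. Mature oligodendrocyte markers also differed: all 7 were lower in Shell, none was at 0 in any library, and their summed level was 481 to 2096 CPM (counts relative to the scaled library total) in Shell and 183 to 7389 CPM in Core, or at least 1268 CPM in Core without 17-F. Of 5 astrocyte markers 2 were lower in Shell, Gfap (-1.61) and Aqp4 (-0.74, log2), and of 4 microglial markers 3 were. Of 10 interneuron markers 5 were higher, among them Lhx8 (0.69), Slc5a7 (0.60) and Calb2 (0.54), and 2 were lower, Npy (-0.54) and Sst (-0.44). Beyond a fit with an oligodendrocyte covariate, the part of these markers in the results was not tested. Markers of D2-type and D1-type projection neurons were above 0 in all 84 libraries. In bulk tissue, fewer cells of a type and less RNA per cell cannot be told apart.

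Per base of gene length, Penk was by far the most abundant of the 7 genes and Oprm1 the least. On the authors' deposited FPKM scale, Penk had a median of 50.7 in Core and 31.3 in Shell. Pdyn followed at 4.59 in Core and 4.47 in Shell, and Penk exceeded Pdyn in 42 of 42 libraries of each subregion. Next came Oprl1 (0.81 FPKM in Core, 1.33 in Shell) and Oprk1 (0.731 in Core, 0.955 in Shell). Oprl1 exceeded Oprk1 in 29 of 42 Core libraries and in 38 of 42 Shell libraries, so the order of these neighbours was less clear in Core. Oprd1 (0.546 FPKM in Core, 0.565 in Shell) and Pnoc (0.43 in Core, 0.398 in Shell) followed, and Oprm1 stood last at 0.216 in Core and 0.271 in Shell. Because length here spans introns, a long gene with long introns such as Oprm1 scores low on this scale relative to its mature transcript.

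Background made up very different shares of the 7 genes' counts. By its rate per base it accounted for a median of 0.403% of the Penk counts in Core and 0.563% in Shell, and for 4.33% and 3.64% of the Pdyn counts. The share was 25% in Core and 18.2% in Shell for Oprk1, 20.8% and 13.9% for Oprl1, and 29.3% and 30.9% for Oprd1. It rose to 42.3% and 43.4% for Pnoc and to 85.9% and 69.2% for Oprm1, the longest gene. The estimate assumes an even rate per base taken from receptor genes, and for Oprm1 it reached 105.6% of the counts even without 17-F, so it was too high for that gene in 4 libraries. The levels of most members ran with the background from library to library. In Core the rank correlation with log2 background over 42 libraries was -0.84 for Penk, -0.83 for Pdyn, -0.83 for Oprl1, -0.79 for Oprk1, 0.84 for Pnoc and 0.69 for Oprm1, and weaker for Oprd1 (-0.36). In Shell it was -0.76 for Penk, between -0.67 and -0.50 for Pdyn, Oprk1, Oprl1 and Oprd1, 0.66 for Pnoc and only 0.089 for Oprm1. These are descriptions of libraries that share depth and scaling.

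**Figure D1:**
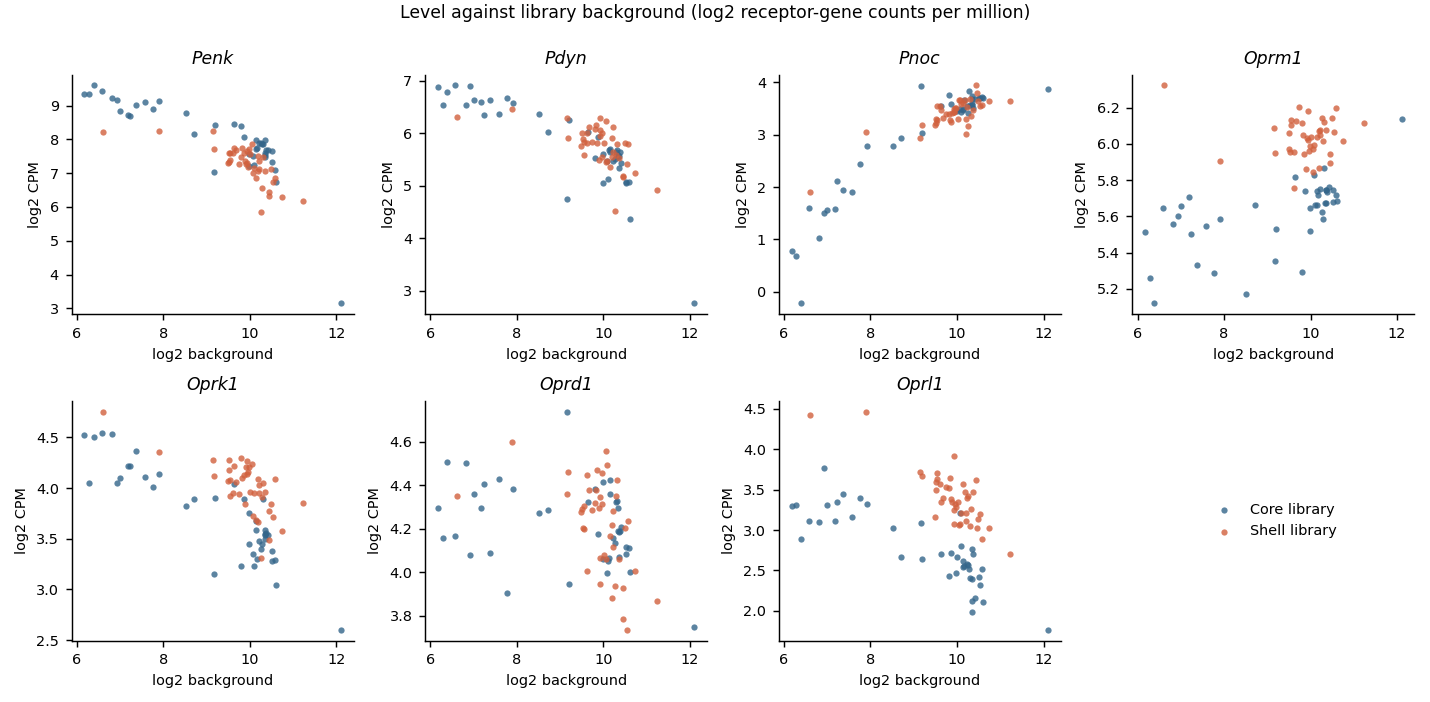
Level of each gene (log2 CPM, y axis) against the library's background (log2 of receptor-gene CPM, x axis) in 42 Core and 42 Shell libraries, each point 1 library. Penk, Pdyn, Oprk1 and Oprl1 fell towards the right while Pnoc rose, and the Core Ctx_Coc library 17-F lies at the far right with 8.76 CPM of Penk.

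Shell was set against Core to ask how the opioid genes are laid out between the subregions. Of the 7 genes, 4 passed an adjusted p of 0.05 in edgeR's quasi-likelihood test, beside 13.2% of 32342 genes tested. Penk was lower in Shell, and the mu, kappa and nociceptin receptor genes Oprm1, Oprk1 and Oprl1 were higher. Pdyn, Pnoc and Oprd1 did not pass. The median log2 fold change was 0.24 over the 7 genes and 0.05 over all genes tested. Of the 4273 genes called, 1465 were higher in Shell and 2808 lower. With library totals in place of TMM scaling the split was 2559 higher and 1715 lower, and the same 4 members passed with unchanged directions.

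Penk, the enkephalin precursor, had the largest difference of the 7 in this fit. With the background as a covariate Oprl1 (0.84) was farther from 0, and net of the background the Oprm1 and Oprl1 differences were larger. In Core it ran from 8.76 CPM in 17-F, and 107 CPM in the next library, through a median of 245 to 773 CPM. In Shell it ran from 57.3 through a median of 162 to 306 CPM. The ranges overlapped, but 39 of 42 Shell libraries lay below the Core mean of log2 CPM. The log2 fold change, Shell minus Core, was -0.94 ± 0.16 (SE, n = 42 each, adjusted p = 3.1e-06), or 1.92-fold lower in Shell.

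The size of the Penk difference moved with the background and the series. The 15 Core libraries with a log2 background under 9 held 287 to 773 CPM of Penk, and the other 26 apart from 17-F held 107 to 347 CPM. The Core medians were 394 CPM (series 1), 199 CPM (series 2) and 488 CPM (series F), and the Shell medians 187 CPM (series 3), 146 CPM (series 4) and 189 CPM (series F). Among libraries with a log2 background above 9 and without 17-F (40 Shell, 26 Core), the log2 fold change was -0.46 (adjusted p = 0.00045). A fit with a background covariate gave -0.45. After removal of the estimated background, Shell libraries held 213 ± 45.7 net CPM of Penk (SD, n = 42; net counts scaled to the net library total) and Core libraries 342 ± 79.4 (SD, n = 41, without 17-F), a 1.61-fold difference (permutation test within groups, p = 1e-05, the smallest it can give). The coefficient of variation between Core libraries went from 54.8% to 23.2% with this step for Penk. It went from 11.8% to 74.8% for Oprm1, 48.9% to 66.0% for Pnoc and 12.5% to 26.1% for Oprd1. The net values of those 3 genes are therefore less precise. The step also replaced TMM scaling by net library totals, and for genes other than Penk both changes were not separated. Scaled to library totals without subtraction, Penk in Core stood at 53.3 ± 16.5 FPKM (SD, n = 41, without 17-F), and with TMM scaling at 332 ± 182 CPM. Relative to the mean, the spread of Penk was thus already smaller with library totals before any subtraction. With the oligodendrocyte level as a covariate the sign of the Penk difference turned to 0.85. In that fit 88.5% of all genes were called, and the covariate itself correlated at -0.75 with subregion over the 84 libraries, so it and subregion are hard to tell apart.

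Series F, the only series with libraries of both subregions, gave a Penk difference of -1.23 that did not pass (adjusted p = 0.42). In that subset 0 of 7 members and 0.226% of genes were called, and 2885 genes had an unadjusted p under 0.05. Without 17-F, series F gave -1.40 for Penk (adjusted p = 0.024), 2 of 7 members were called (Penk and Oprm1), and so were 2.1% of genes. Over all series without 17-F the same 4 members were called as with it, beside 26.1% of genes.

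In each of the 6 condition and drug groups the Penk estimate was below 0. It was -1.44 ± 0.39 in Ext Sal (adjusted p = 0.042), -1.19 ± 0.39 in Ctx Sal, -1.04 ± 0.39 in Ext Coc, -0.90 ± 0.39 in HC Coc, -0.60 ± 0.38 in HC Sal and -0.48 ± 0.38 in Ctx Coc (SE, n = 7 each). Only the first of these passed. In 5 of the 6 groups all 7 Shell libraries lay below the Core mean, and in Ctx Coc, the group of 17-F, 3 of 7 did. The test of whether the difference varied over the groups called none of the 7 genes and 0% of all genes (125 genes had an unadjusted p under 0.05).

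**Figure D2:**
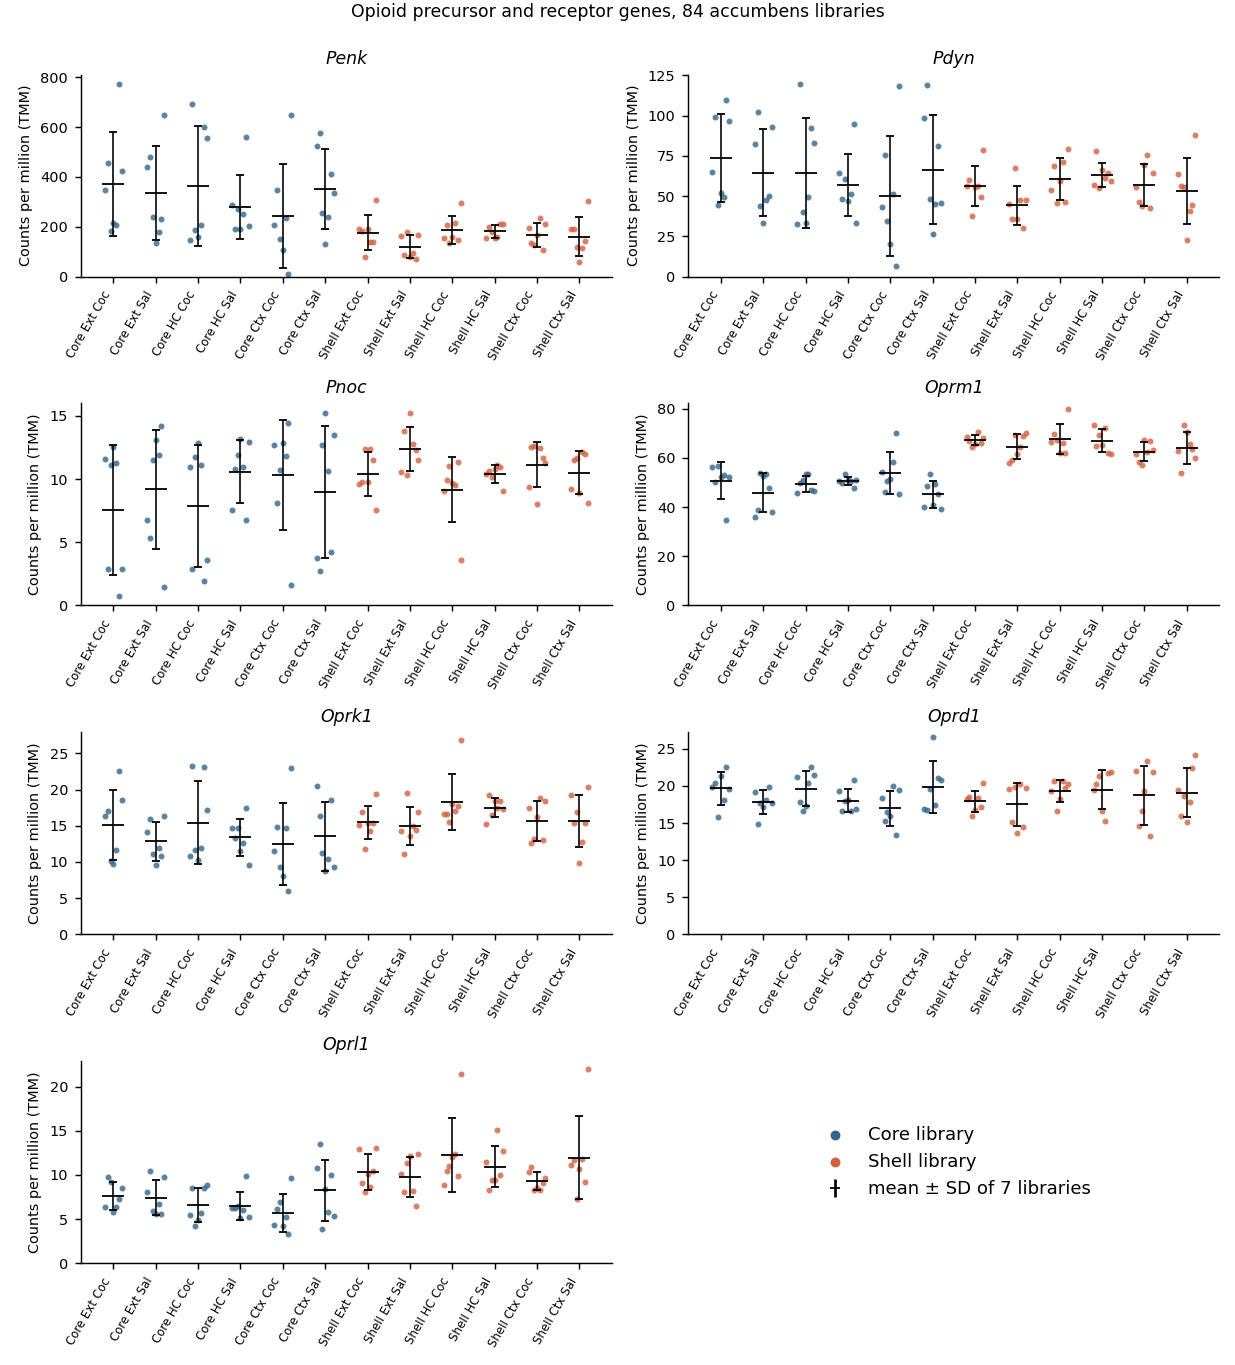
Level of each gene (CPM after TMM scaling, y axis starting at 0) in the 12 groups, with 1 point per library and the mean ± SD of 7 libraries in black. Penk is higher and more spread in the Core groups, and Oprm1 lies at 53.9 to 79.9 CPM in Shell against 34.7 to 70.2 CPM in Core.

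Penk was also low in Shell relative to other transcripts of D2-type neurons. The 4 markers used were Drd2, the D2 dopamine receptor, Adora2a, an adenosine receptor, Gpr6, an orphan receptor, and Sp9, a transcription factor. Penk exceeded their mean log2 CPM by 2.98 ± 0.41 in Core and by 2.43 ± 0.23 in Shell (SD, n = 42 each). The difference was -0.55 (permutation test within groups, two-sided, p = 1e-05, the smallest it can give). It lay between -0.75 and -0.49 under the 9 other settings tried, among them each marker left out in turn, and passed 0.05 in each of them. Of the markers themselves, Adora2a was lower in Shell (-0.45 ± 0.11, adjusted p = 0.0031), while Gpr6 (-0.32 ± 0.14), Drd2 (-0.23 ± 0.11) and Sp9 (-0.23 ± 0.13) did not pass. With the background as a covariate, Adora2a stood at -0.09 and did not pass.

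Pdyn, the dynorphin precursor, showed no difference between the subregions that held. It ran from 6.65 CPM in 17-F, and 20.4 CPM in the next library, through a median of 50.4 to 120 CPM in Core. In Shell it ran from 22.8 through a median of 56 to 88.1 CPM. The ranges overlapped almost entirely. The log2 fold change was -0.16 ± 0.13 (SE, n = 42 each, adjusted p = 0.39), with an approximate 95% interval of -0.41 to 0.09. Its sign depended on the setting: it was 0.04 with library totals, 0.26 with the background as a covariate (adjusted p = 0.0036), 0.27 among libraries with a log2 background above 9 (adjusted p = 0.012) and -0.55 in series F without 17-F (adjusted p = 0.074). Net of the estimated background, Pdyn stood at 71 ± 14.7 net CPM over the Shell libraries and 65.9 ± 12 over those of Core (SD, n = 42 and 41, permutation p = 0.085).

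Relative to the mean of 4 markers of D1-type neurons Pdyn was lower in Shell. The markers were Drd1, the D1 dopamine receptor, Tac1, the substance P precursor, Isl1, a transcription factor, and Eya1, a transcriptional coactivator. Pdyn exceeded their mean log2 CPM by 1.46 ± 0.46 in Core and 1.15 ± 0.23 in Shell (SD, n = 42 each), a difference of -0.32 (permutation test within groups, two-sided, p = 0.00016). The 9 other settings gave -0.65 to -0.13, each with p under 0.05. The smallest came from libraries with a log2 background above 9 (-0.13, permutation p = 0.024), and leaving out Tac1 gave -0.22 (permutation p = 0.039). Leaving out Eya1 gave -0.31 (permutation p = 1e-05), with a Core SD of 0.21. Eya1 had medians of 0.208 FPKM in Core and 0.206 in Shell, below those of Oprm1 (0.216 and 0.271). In the median library most Oprm1 counts lay at the level of the background estimate, and the background share of Eya1 was not computed. Of the markers, Tac1 (0.46 ± 0.14, adjusted p = 0.015) and Isl1 (0.24 ± 0.07, adjusted p = 0.015) were higher in Shell, whereas Eya1 (0.23 ± 0.10) and Drd1 (-0.15 ± 0.14) did not pass. Pdyn itself (-0.16) did not pass, so the measure also reflects its markers. The Pdyn estimate lay close to that of Drd1 (-0.15), and leaving out Drd1 widened the ratio difference to -0.41 (permutation p = 0.00036). A ratio to Drd1 alone was not computed. Directly compared, log2 Pdyn minus log2 Penk was -2.31 ± 0.24 in Core (SD, n = 41, without 17-F) and -1.53 ± 0.24 in Shell (SD, n = 42), ranging from -2.86 to -1.92 and from -1.96 to -0.99.

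**Figure D3:**
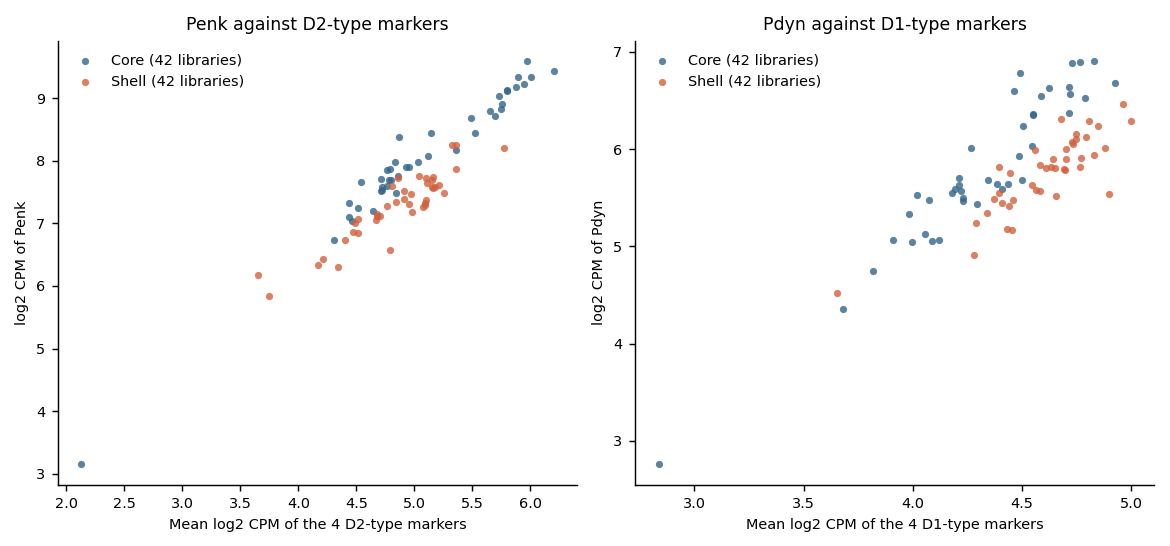
Left, log2 CPM of Penk (y axis) against the mean log2 CPM of 4 D2-type markers (x axis), and right, Pdyn against 4 D1-type markers, each point 1 library (42 Core, 42 Shell). The log2 ratio of gene to marker mean is higher in Core, by 0.55 on average for Penk and 0.32 for Pdyn. The offset at a fixed marker level was not computed.

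Pnoc, the nociceptin precursor, was among the least counted of the 7, with 9 to 466 counts per library. It ran from 0.743 through a median of 11 to 15.2 CPM in Core and from 3.61 through a median of 10.9 to 15.3 CPM in Shell. The medians hardly differed, and the low values were those of libraries with little background: the 15 Core libraries with a log2 background under 9 held 0.743 to 7.55 CPM and the other 26 apart from 17-F held 8.1 to 15.2 CPM. The log2 fold change was 0.26 ± 0.15 (SE, adjusted p = 0.22; approximate 95% interval -0.03 to 0.54). Among libraries with a log2 background above 9 it was -0.15 (adjusted p = 0.0056), so both the sign and the call changed. Net of the background Pnoc stood at 8.25 ± 2.99 net CPM over the Shell libraries and 7.56 ± 4.99 over those of Core (SD, n = 42 and 41, permutation p = 0.45).

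Oprm1, the mu receptor, which binds enkephalins, endorphin and morphine, was higher in Shell. It ran from 34.7 through a median of 50.5 to 70.2 CPM in Core and from 53.9 through a median of 65.5 to 79.9 CPM in Shell. The highest Core value was that of 17-F. All 42 Shell libraries lay above the Core mean, and the log2 fold change was 0.41 ± 0.04 (SE, n = 42 each, adjusted p = 4.1e-16), or 1.33-fold. It was called in 5 of the 6 condition and drug groups, more than any other member: 0.51 ± 0.09 in Ctx Sal, 0.49 ± 0.09 in Ext Sal, 0.45 ± 0.09 in HC Coc, 0.40 ± 0.09 in Ext Coc and 0.40 ± 0.09 in HC Sal (adjusted p = 5.9e-05 to 0.0032). In those 5 groups the Shell and Core ranges did not overlap. In Ctx Coc, with 17-F, the estimate was 0.22 ± 0.09 and did not pass (adjusted p = 1).

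Beside those calls, the share of all genes called was 1.64% in Ctx Sal, 1.14% in Ext Sal, 1.5% in HC Coc, 1.7% in Ext Coc, 0.931% in HC Sal and 0.108% in Ctx Coc. The share of genes whose Shell range lay wholly above the Core range was 0.121% in Ctx Sal, 0.284% in Ext Sal, 0.226% in HC Coc, 0.192% in Ext Coc and 0.442% in HC Sal (0.114% in Ctx Coc). Where the fit held only the groups compared, Oprm1 and all other members missed the threshold in Ctx Sal, Ext Coc and Ext Sal. The Oprm1 difference over all groups kept its sign and its call under the other settings except in series F with 17-F (0.49, adjusted p = 0.089), and was 0.54 (adjusted p = 0.013) without that library. In the median library most Oprm1 counts lay at the level of the background estimate, but its share ran down to 10.8% in Core and 8.03% in Shell. The 15 Core libraries with a log2 background under 9 held a median of 46.5 CPM. The 2 such Shell libraries held 59.8 and 79.9 CPM. Net of the background estimate, Oprm1 stood at 26.8 ± 10.3 net CPM over the Shell libraries and 13.2 ± 9.88 over those of Core (SD, n = 42 and 41), a 2.03-fold difference (permutation p = 1e-05), with values below 0 in 4 libraries.

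Oprk1, the kappa receptor, was slightly higher in Shell. It ran from 5.96 through a median of 12.3 to 23.2 CPM in Core and from 9.82 through a median of 16.5 to 26.9 CPM in Shell, and 35 of 42 Shell libraries lay above the Core mean. The log2 fold change was 0.24 ± 0.08 (SE, adjusted p = 0.027), or 1.18-fold. The estimates of the 6 groups ran from 0.05 to 0.38 and none passed. With library totals the difference was 0.39, with the background as a covariate 0.47 and among libraries with a log2 background above 9 0.48. In series F it was 0.16, or 0.04 without 17-F, and did not pass. Net of the background Oprk1 stood at 17.5 ± 3.41 net CPM over the Shell libraries and 12.4 ± 2.17 over those of Core (SD, n = 42 and 41), 1.41-fold (permutation p = 1e-05).

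Oprd1, the delta receptor and the other main target of enkephalins, showed no difference that passed the test. It ran from 13.3 through a median of 18.1 to 26.6 CPM in Core and from 13.2 through a median of 19.3 to 24.1 CPM in Shell. The log2 fold change was 0.0031 ± 0.04 (SE, n = 42 each, adjusted p = 0.97), and its approximate 95% interval of -0.08 to 0.09 corresponds to 0.944-fold to 1.06-fold. Net of the background it stood at 16.7 ± 3.46 net CPM over the Shell libraries and 16.4 ± 4.29 over those of Core (SD, n = 42 and 41, permutation p = 0.78).

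Oprl1, the nociceptin receptor, had the largest positive difference of the 7 in the fit to the counts as deposited, and the second largest, after Oprm1, net of the background. It ran from 3.29 through a median of 6.32 to 13.5 CPM in Core and from 6.43 through a median of 10.2 to 21.9 CPM in Shell. The 2 Shell libraries with a log2 background under 9 were the highest, at 21.4 and 21.9 CPM. In all, 41 of 42 Shell libraries lay above the Core mean, and the log2 fold change was 0.62 ± 0.09 (SE, adjusted p = 2.1e-08), or 1.54-fold. Among the groups it was called in HC Coc, at 0.90 ± 0.21 (adjusted p = 0.00675), where the ranges did not overlap, and not in the others, which ran from 0.40 to 0.76. In series F it did not pass, at 0.64 with 17-F (adjusted p = 0.42) and 0.53 without it (adjusted p = 0.083). Net of the background Oprl1 stood at 12.2 ± 2.09 net CPM over the Shell libraries and 6.48 ± 1.37 over those of Core (SD, n = 42 and 41), 1.88-fold (permutation p = 1e-05).

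**Figure D4:**
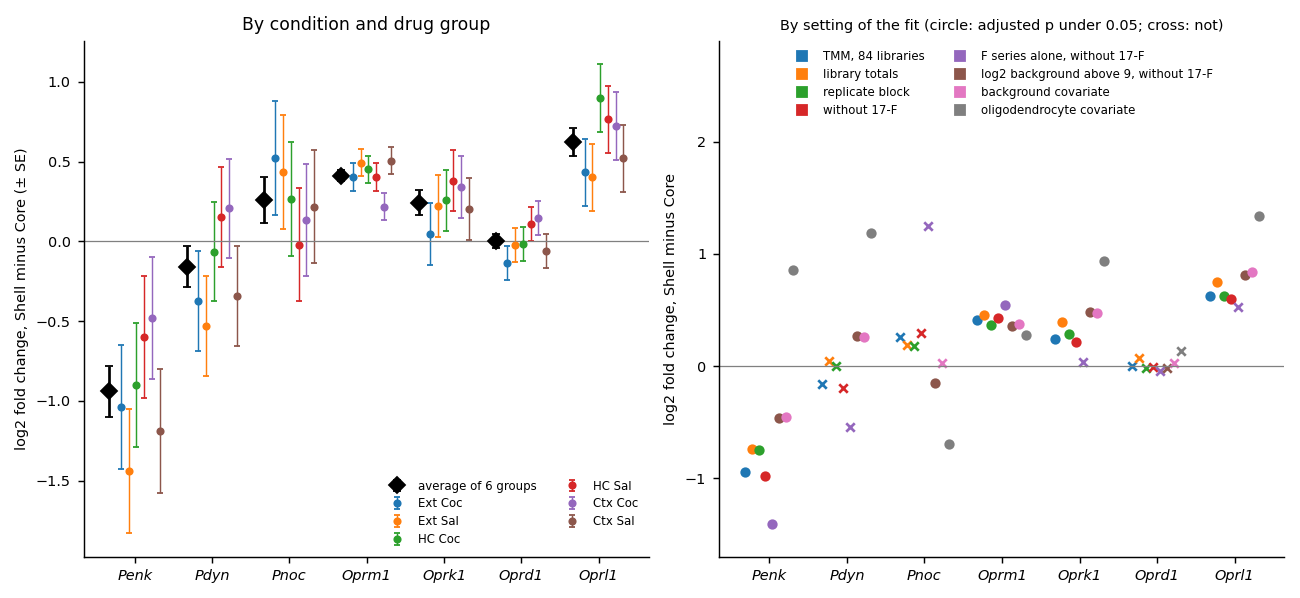
Left, log2 fold change of Shell minus Core (y axis, ± SE) for each gene, averaged over 6 groups (diamonds) and in each group (circles). Right, the same average under 8 settings, with circles where the adjusted p was under 0.05 and crosses where not. Oprm1 and Oprl1 lie above 0 in each setting shown, while Penk lies below 0 except with the oligodendrocyte covariate (0.85).

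The order of the 12 group medians repeated this layout for Penk, Oprm1, Oprk1 and Oprl1. For Penk the 6 highest medians were the 6 Core groups, from 347 CPM in Core Ext Coc, and the lowest was Shell Ext Sal at 95.2 CPM. For Oprm1 and Oprl1 the 6 highest medians were the 6 Shell groups. For Oprk1 and Pdyn 5 of the 6 highest were Shell groups, although the Pdyn estimate was -0.16 and did not pass. For Pnoc and Oprd1 3 were. Within these orders the ranges of neighbouring groups overlapped in 11 of 11 pairs for 6 of the genes and in 10 of 11 for Oprm1. Groups farther apart in an order were not compared in this way.

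Other genes of the pathway were read in 5 lists of 47 genes in all, of which 6 were higher and 11 lower in Shell, beside the 13.2% of genes called overall. Pomc, the precursor of beta-endorphin, did not pass (0.14 ± 0.10, adjusted p = 0.35). Of 7 processing genes 1 was called, Pcsk1, the prohormone convertase that begins precursor cleavage, which was higher (0.38 ± 0.06, adjusted p = 2.6e-07). Of 8 peptidases 1 was called, Ece2, a peptide-cleaving metalloprotease, which was higher (0.27 ± 0.07, adjusted p = 0.0053). The list medians were -0.07 for processing and 0.04 for peptidases, against 0.05 over all genes.

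Downstream of the receptors, 3 of 15 G protein and effector genes were higher in Shell and 5 lower, with a median of -0.15. Kcnj3, a subunit of the inwardly rectifying potassium channel, was higher (0.44 ± 0.07, adjusted p = 1.9e-06), as was the adenylyl cyclase Adcy8 (0.41 ± 0.09, adjusted p = 0.00071). Gnai1, an inhibitory G protein subunit, was lower (-0.41 ± 0.09, adjusted p = 0.0006), as was Adcy5, the main adenylyl cyclase of striatal neurons (-0.44 ± 0.12, adjusted p = 0.0054). With the background as a covariate Adcy5 stood at -0.03 and did not pass, while Gnai1 stood at -0.09 and still passed (adjusted p = 0.031). Adcy8 stood at 0.22 with that covariate and at 0.16 among libraries with a log2 background above 9. Its medians of 0.200 FPKM in Core and 0.223 in Shell lay below those of Oprm1, most of whose counts lay at the background level in the median library. Of 16 genes that regulate receptors 1 was higher and 6 lower, with a median of -0.07. Grk3, a receptor kinase, was higher (0.28 ± 0.05), and the regulators of G protein signalling Rgs20 (-0.40 ± 0.04) and Rgs14 (-0.92 ± 0.12) were lower, as was Wls (-0.21 ± 0.06). Wls kept its call in only 6 of 13 other settings, turned sign in 1, and stood at -0.11 with the background as a covariate (adjusted p = 0.083). Pcsk1, Ece2, Kcnj3, Grk3 and Rgs20 kept their sign under all 13 other settings, and Rgs14 and Adcy8 under 12 of them.

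The genes whose levels ran most like each member over the 84 libraries, among 15240 genes, were read by rank correlation as a description. Those of Penk were Arpp19 (0.96), Gpr52 (0.93) and Lamp5 (0.92). Those of Pdyn were Drd1 (0.95), Strip2 (0.95) and Pde1b (0.95), and those of Oprk1 were Tac1 (0.92), Brinp1 (0.92) and Zfp385b (0.91). Pnoc ran with Pik3ap1 (0.94), Spsb4 (0.93) and Col26a1 (0.92), Oprm1 with Nell1 (0.90), Nol4 (0.88) and Trhr (0.87), and Oprl1 with MAST1 (0.90) and Pnck (0.89). Oprd1 had no close neighbour, with Ttll11 at 0.70, Slit3 at 0.65 and Mtus2 at 0.64. Among the members, Penk and Pdyn ran together (0.92 over 41 Core libraries without 17-F, 0.86 over 42 Shell libraries), as did Pdyn and Oprk1 (0.90 and 0.83), while Penk and Pnoc ran opposite (-0.78 and -0.62). All of these points share depth, scaling and the background described above.

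Cocaine and saline were compared within each condition and subregion to ask whether the opioid genes differ after cocaine. In none of the 6 contrasts was a member called, beside 0% of 31924 genes in Core and 0% of 31411 genes in Shell (edgeR quasi-likelihood test). The 42 estimates ran from -0.60 to 0.50 on the log2 scale, 40 of them within 0.5 of 0, and the lowest adjusted p was 0.43. Of these 42, 3 had an unadjusted p under 0.05. Over all genes 187 (Core Ext), 189 (Core HC), 3442 (Core Ctx), 492 (Shell Ext), 427 (Shell HC) and 1539 (Shell Ctx) had one. Neither average over the 3 conditions called a member or any gene (0%, with 440 genes of unadjusted p under 0.05 in Core and 302 in Shell).

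Penk did not differ detectably between Coc and Sal. In Core Ext it ran from 182 to 773 CPM with Coc (median 347) and from 136 to 648 with Sal (median 238), a log2 fold change of 0.12 ± 0.41 (SE, n = 7 each). In Core HC it ran from 147 to 693 CPM (median 208) and from 191 to 560 (median 252), a change of 0.19 ± 0.41. In Core Ctx it ran from 8.76 to 648 CPM (median 206) and from 131 to 577 (median 334), a change of -0.50 ± 0.41. The Coc and Sal ranges overlapped in each condition, and the intervals allow changes of about -1.31 to 1.00 in Core.

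Shell libraries were less spread and gave tighter bounds. In Shell Ext Penk ran from 78.7 to 306 CPM with Coc (median 182) and from 72.3 to 179 with Sal (median 95.2). Of the 7 Coc libraries 6 lay above the Sal mean, and the log2 fold change was 0.50 ± 0.25 (unadjusted p = 0.049, adjusted p = 1.0). In Shell HC it ran from 135 to 295 CPM (median 161) and from 153 to 213 (median 177), a change of 0.05 ± 0.25. In Shell Ctx it ran from 106 to 233 CPM (median 165) and from 57.3 to 303 (median 142), a change of 0.12 ± 0.25. Averaged over conditions the Shell change was 0.23 ± 0.14 (adjusted p = 1, approximate 95% interval -0.05 to 0.51).

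Pdyn did not differ detectably between Coc and Sal either. In Core it ran from 44.2 to 110 CPM in Ext Coc (median 65.1) and from 33.4 to 102 in Ext Sal (median 49.8), a log2 fold change of 0.20 ± 0.33 (SE, n = 7 each). The medians in Core HC were 49.6 CPM with Coc and 51 with Sal (0.05 ± 0.33), and in Core Ctx 43.1 and 47.9 (-0.35 ± 0.33). In Shell it ran from 37.6 to 78.3 CPM in Ext Coc (median 56.2) and from 30 to 67.2 in Ext Sal (median 44.8), a change of 0.34 ± 0.19, with 6 of 7 Coc libraries above the Sal mean (unadjusted p = 0.088). The Shell medians were 59.4 and 61.4 CPM in HC (-0.06 ± 0.19) and 55.8 and 55.5 CPM in Ctx (0.10 ± 0.19). The interval for the average over conditions, -0.09 to 0.34 in Shell and -0.41 to 0.35 in Core, holds 0.

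Among the receptors, the unadjusted p was under 0.05 within a condition only in Core Ctx, for Oprm1 and Oprl1. Oprm1 ran from 45.5 to 70.2 CPM with Coc (median 51.2) and from 39.1 to 53.5 with Sal (median 45.2), a log2 fold change of 0.28 ± 0.10 (unadjusted p = 0.0099, adjusted p = 0.43), and 7 of 7 Coc libraries lay above the Sal mean. Oprl1 ran from 3.29 to 9.68 CPM with Coc (median 5.2) and from 3.86 to 13.5 with Sal (median 8.38), a change of -0.48 ± 0.22 (unadjusted p = 0.033, adjusted p = 0.43). The median background share was 27.7% in Core Ctx Coc and 12.6% in Core Ctx Sal, the widest gap of the 6 contrasts, and with it as a covariate the estimates were 0.18 for Oprm1 and -0.21 for Oprl1. Without 17-F they were 0.17 and -0.37. Over all settings run they lay between 0.17 and 0.77 for Oprm1 and between -0.56 and -0.15 for Oprl1. Averaged over conditions, Oprm1 in Core stood at 0.13 ± 0.06 (SE, unadjusted p = 0.039, adjusted p = 1). In Shell Ctx, Oprl1 stood at -0.35 ± 0.18 (unadjusted p = 0.054, adjusted p = 0.73), with 0 of 7 Coc libraries above the Sal mean. That mean includes library 24-F, which stood apart at 4.46 log2 CPM, with the next highest Sal library at 3.57. For Oprd1 and Oprk1 the estimates of the 6 contrasts lay between -0.20 and 0.20, and for Oprm1 in Shell between -0.05 and 0.06. Pnoc ranged more widely, from -0.60 in Core HC to 0.31 in Core Ctx.

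**Figure D5:**
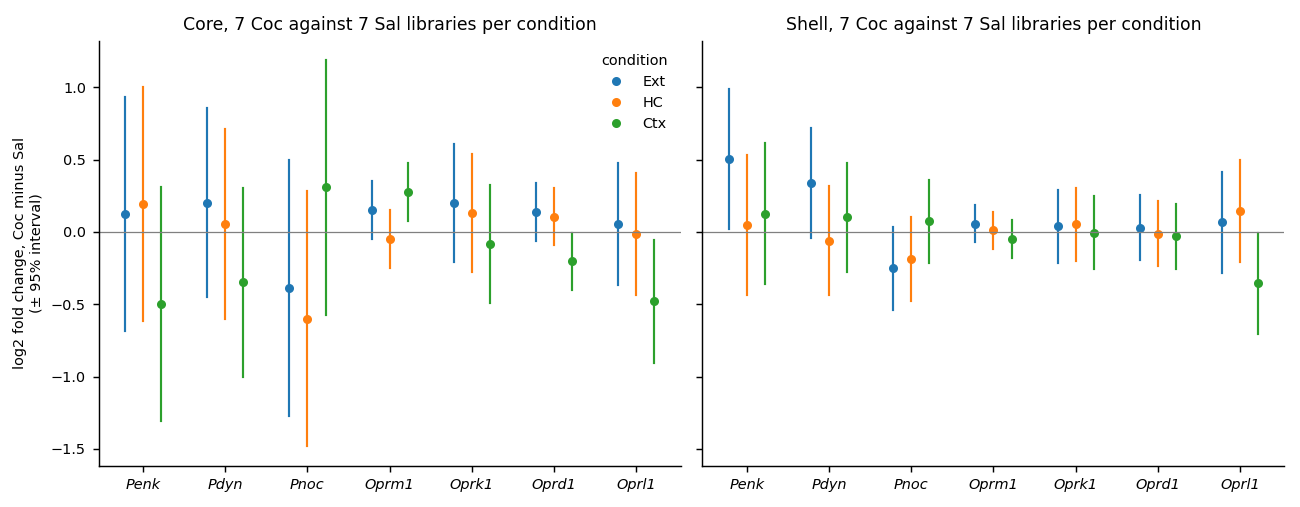
Log2 fold change of Coc minus Sal (y axis, bars for approximate 95% intervals) for each gene in Ext, HC and Ctx, in Core (left) and Shell (right), from 7 against 7 libraries. Of the 42 bars 37 cross 0, those of Penk, Pdyn and Pnoc are widest in Core, and Oprm1 in Core Ctx (0.28) and Penk in Shell Ext (0.50) are among those that do not.

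Conditions were compared within each drug to set extinction beside the other conditions. None of the 12 contrasts called a member or any other gene (0%), with 77 to 4953 genes of unadjusted p under 0.05. Because several contrasts share the same 7 libraries, they are not independent. In Core the 42 estimates ran from -0.63 to 0.57 and none had an unadjusted p under 0.05. In Shell, Ext Sal stood below HC Sal for Pdyn (-0.50 ± 0.19, unadjusted p = 0.014, adjusted p = 0.64) and for Penk (-0.56 ± 0.25, unadjusted p = 0.029, adjusted p = 0.64). Of the 7 Ext Sal libraries all 7 lay below the HC Sal mean for Penk and 6 for Pdyn. In Shell HC Sal, Pdyn ran from 55.2 to 78.1 CPM and Penk from 153 to 213 CPM, the narrowest ranges of the 12 groups for these genes. The median background share was 27.4% in Shell Ext Sal and 21.2% in Shell HC Sal. Over the 9 settings run, among them the background as a covariate, the Penk estimate lay between -0.58 and -0.42. That of Pdyn lay between -0.51 and -0.35, and neither gene passed in any of them. Oprl1 was 9.05 CPM at the median in Shell Ctx Coc and 11 in Shell HC Coc (-0.38 ± 0.18, unadjusted p = 0.042, adjusted p = 0.30). Over the 9 settings run this estimate lay between -0.42 and -0.03. The highest Shell HC Coc library, 6-F, stood apart at 21.4 CPM. The median background share was 23.4% in Shell Ctx Coc and 17.8% in Shell HC Coc.

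Whether the drug effect differed between conditions or between subregions was tested directly. In 7 such differences none of the 49 member estimates passed (lowest adjusted p = 0.35), nor did any gene (0%, with 58 to 3756 genes of unadjusted p under 0.05). The drug effect on Oprm1 was larger in Core Ctx than in Core HC by 0.33 and smaller in Shell Ctx than in Core Ctx by 0.29 (log2 difference of -0.29), with unadjusted p of 0.030 and 0.020. Over the settings these ran from 0.17 to 0.96 and from -0.66 to -0.14, and without 17-F they were 0.22 and -0.21. For Oprd1 the Core Ctx effect minus the Core HC effect was -0.31 (unadjusted p = 0.038). The single test over all 6 groups of a subregion called no member and no gene (0%, with 292 genes of unadjusted p under 0.05 in Core and 1182 in Shell). The lowest unadjusted p of the members was 0.084 in Core, for Oprm1, and 0.11 in Shell, for Pnoc. DESeq2's Wald test, run for 27 of the 29 drug, condition and difference comparisons, called 0 members and at most 3 genes in any of them.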

How the data were processed

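Total RNA of 84 nucleus accumbens libraries was extracted with a Direct-zol kit and made into libraries with a stranded low-input total RNA kit, per the labels' protocols. The submitters' processing notes name featureCounts and build mRatBN7.2, and the authors deposited unscaled integer counts for each gene. The sources used here do not give the aligner, annotation release, strand setting or any use of molecular identifiers. The authors also deposited FPKM values derived from those counts, which here gave gene lengths and the order of levels between genes. Every column of both tables was mapped to a library (0 unused).

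Groups came from the titles. Genes were kept by filterByExpr, scaled by TMM and tested on the counts as deposited with edgeR 4.0.16 (R 4.3.3), by two-sided quasi-likelihood F tests with Benjamini-Hochberg adjustment over all genes and a threshold of 0.05. Shell minus Core used all 84 libraries with series F against the numbered series as a covariate. Drug and condition contrasts used the 42 libraries of a subregion with its series as a covariate. That makes 37 comparisons. CPM are counts relative to the TMM-scaled library total, and log2 CPM used a prior count of 2. Intervals (95%) are the estimate ± 1.96 SE. Marker ratios and background-corrected levels were compared by permuting subregion labels within the 6 groups (100000 resamples). The scripts were tested on simulated data.

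Alternatives were DESeq2 1.42.0 (Wald test, size factors), no low-count filter, no series term, only the groups compared, no series F, series F alone, a background or an oligodendrocyte covariate, a replicate block, and leaving out the Core Ctx_Coc library 17-F. Added after seeing the data were library totals, series F alone without 17-F, libraries with a log2 background above 9 without 17-F, and subtraction of the background. The members, lists and tests were chosen with earlier results of these data known. Named genes are the 7 members in every comparison, the 3 genes of highest rank correlation with each (mean log2 CPM of at least 1, symbols that are not identifiers), and up to 4 genes of lowest p in Shell against Core per list. A result that this rule names is not reported here. Sequences are not shown.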

Additional observations from a re-analysis of the deposited data

Results flagged for a closer look

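Of 84 sets of 7 libraries (7 genes in 12 groups), 9 held a library whose log2 CPM stood apart from its group by a gap of more than 0.568 of the group's range. Chance flags about 1 in 20 such sets. All 9 values belong to series F. Penk was 3.15 in 17-F (Core Ctx_Coc), and 6.74 in the next lowest library. In Core HC_Sal 15-F, Penk (9.13) and Oprl1 (3.32) were the highest. In Core Ctx_Coc 19-F, Pnoc (0.78) was the lowest, and in Core Ext_Coc 1-F, Oprm1 (5.12) was. In Shell HC_Coc 6-F, Pnoc (1.90) was the lowest and Oprk1 (4.75) and Oprl1 (4.42) the highest. In Shell Ctx_Sal 24-F, Oprl1 (4.46) was the highest. The log2 background of 17-F was 12.1, the highest of the 84 libraries, and those of 15-F, 19-F, 1-F, 6-F and 24-F were 7.91, 6.18, 6.39, 6.61 and 7.90, below the Core and Shell medians of 9.99 and 9.97. Its part in these values was not tested. No difference of drug effects between groups passed for any member.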

How the results depend on the processing

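In Shell minus Core, Penk, Oprm1, Oprk1 and Oprl1 kept their sign and their call with DESeq2's size factors or Wald test, library totals, no low-count filter, no series term, no series F, without 17-F, with the background covariate, with the replicate block and net of the background. Of all genes, 4273 were called; the count was 8444 without 17-F, 13244 with the background covariate, 16102 among libraries with a log2 background above 9 without 17-F, 29497 with the oligodendrocyte covariate, 76 in series F alone and 714 in series F without 17-F. In series F alone 0 members were called (Penk -1.23, Oprm1 0.49, Oprk1 0.16, Oprl1 0.64), and without 17-F 2 were (Oprk1 0.037 and Oprl1 0.53 missed the threshold). The oligodendrocyte covariate turned the sign of Penk (0.85), Pdyn (1.19) and Pnoc (-0.70), and moved the median of all genes to -0.32. Pdyn also changed sign with the background covariate (0.26), library totals (0.041), the replicate block (0.0023), a log2 background above 9 (0.27) and net of the background (0.11), and Pnoc at a log2 background above 9 (-0.15). Oprd1 stayed near 0 but changed sign without 17-F (-0.010), without series F (-0.015), in series F without 17-F (-0.046), at a log2 background above 9 (-0.015) and with the replicate block (-0.016).

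Within single groups the count of members called moved over the settings, between 0 and 4 in Ctx Coc, 0 and 6 in Ctx Sal, 0 and 5 in Ext Coc, 0 and 4 in Ext Sal, 0 and 6 in HC Coc, and 0 and 7 in HC Sal. The share of all genes called moved too: it was 0.108% to 1.7% as reported, 4.50% to 22.7% with the background covariate and 37.7% to 79.7% with the oligodendrocyte covariate. The highest counts came from the oligodendrocyte or background covariate and counts of 0 from series F alone or from the fit of only the groups compared, except in Ctx Coc, which was at 0 as reported too, and in Ext Coc, which was also at 0 without series F and with the replicate block. Counts of 1, 2 and 3 arose under the other settings. In the 29 drug, condition and difference comparisons no member was called in any of 279 fits. There the sign of Penk turned in Core Ext (-0.050 with the background covariate, -0.033 without series F), Core HC (-0.21, background covariate), the Core average (0.0032 without 17-F) and Shell HC (-0.20, background covariate; -0.057, library totals). That of Pdyn turned in Core HC (-0.28, background covariate; -0.086, library totals; -0.073, no series F) and in the Core average (0.029 without 17-F), and that of Oprd1 in the Core Ctx minus HC drug difference (0.17, library totals). The causes were not tested. The marker ratios of Penk and Pdyn kept sign and call in every setting run.

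The numbers in the titles (1-k with 3-k, 2-k with 4-k) may pair Core with Shell libraries. Deviations of 27 of 30 such pairs correlated above 0.1 (median 0.33, lowest -0.06, other pairs -0.01), and 21 correlated best with their own number. These values lie well above those of other pairs, so many of these libraries may be paired. Since not every pair exceeded 0.1, the rule set for using the pairing was not met. The main Shell minus Core fit and the permutation tests therefore treated the libraries as independent. With the pairing as a replicate block 3501 genes and the same 4 members were called (10.6% of genes). DESeq2 was not run for tests of several contrasts at once, and only the groups compared was run only for contrasts of 2 groups. Depth limits the low values: the lowest Pnoc value rests on 9 counts.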
